A study of Rattus norvegicus with 16 samples.

Results

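The genes of the cytosolic ribosomal proteins were followed in rat supraspinatus, a muscle of the rotator cuff, after a tear combined with loss of its nerve supply. Members were the rows of the gene table whose symbol begins with Rpl or Rps and a digit, together with Rplp0, Rplp1, Rplp2 and Rpsa. The rule left out 9 genes of the Rps6k kinases and 1 pseudogene row. It gave 84 members of 17147 genes: 77 core ribosomal proteins, 6 paralogs (Rpl3l, Rpl22l1, Rpl36al, Rpl39l, Rps27l and Rps4y2) and Rps19bp1, which by its name is a binding protein of a ribosomal protein and not part of the ribosome. Of the 84, 77 had enough fragments to be tested, namely 71 core members, 5 paralogs and Rps19bp1.

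Messenger RNA was sequenced in 16 libraries from Sprague Dawley rats, 4 for each of 4 groups. The 0 days group holds unoperated controls, and the other groups were taken 10, 30 and 60 days after both supraspinatus muscles had been torn through their full thickness and the suprascapular nerves cut out (neurectomy), which removes the nerve supply of this muscle. Tear and neurectomy were always combined, no sham-operated or time-matched group was analysed here, and the labels give neither age nor sex nor which libraries came from 1 rat. The p-values therefore measure only the spread between these libraries.

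A ribosome has a small subunit, which reads the messenger RNA, and a large subunit, which joins the amino acids, and its proteins (Rps and Rpl) are made in matched amounts. Growing muscle fibres add ribosomes, while tear and denervation bring atrophy and inflammation. Skeletal muscle also makes Rpl3l, a striated-muscle paralog that can take the place of Rpl3 near the catalytic centre of the large subunit. Many messenger RNAs of ribosomal proteins begin with a C followed by a run of pyrimidines (C or T), the 5′ TOP motif through which mTOR signalling and Larp1 control their translation.

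The annotated starts are shown first, because the TOP start is a known feature of this gene family. RefSeq promoters of the rat assembly GRCr8 were matched by symbol for 67 members. Each sequence below holds the 15 bases before the annotated first base and the first 15 bases from it, 5′ to 3′, and capitals mark a pyrimidine run that begins with C at that first base and holds at least 5 bases.
Rpl3 (chr7:113507976-113508005, minus strand): ccagcgcctgctcgatctctatcggcggcg
Rpl3l (chr10:14258431-14258460, plus strand): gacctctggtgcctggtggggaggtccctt
Rpl22 (chr5:168117946-168117975, plus strand): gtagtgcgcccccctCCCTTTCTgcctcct
Rpl22l1 (chr2:113683181-113683210, plus strand): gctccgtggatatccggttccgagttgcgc
Rps27 (chr2:177964592-177964621, minus strand): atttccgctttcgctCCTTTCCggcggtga
Rps27l (chr8:76443643-76443672, plus strand): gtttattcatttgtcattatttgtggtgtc
Rpl39 (chrX:121195882-121195911, minus strand): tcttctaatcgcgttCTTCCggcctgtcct
Rpl41 (chr7:1563483-1563512, minus strand): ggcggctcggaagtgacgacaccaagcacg
Rplp0 (chr12:46718376-46718405, minus strand): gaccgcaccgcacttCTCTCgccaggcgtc
Rplp1 (chr8:71290858-71290887, minus strand): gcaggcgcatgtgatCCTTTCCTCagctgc

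A start of this form, C followed by at least 4 C or T, was annotated for 24 of the 67 members (35.8%) and for 722 of all 27457 promoters (2.63%). All 24 were core members, of 62 core members matched, and none of the 4 matched paralogs had it. The annotated first base can lie a few bases from the base used in muscle, so a start without capitals says only that these letters are not at this position. Among core members, the median log2 fold change at 10 against 0 days was 0.30 for the 24 with such a start and 0.37 for the 33 tested without it. A second rule took each pyrimidine run as a whole. The whole run had to hold at least 5 bases and begin with C within 5 bases of the start. This rule leaves out some of the 24, such as Rpl22 and Rpl39, whose whole runs begin further upstream or with T. The medians were 0.34 for the 19 that met it and 0.34 for the 38 that did not, which include such starts.

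The 250 bases upstream of the start were searched on both strands for 4 motifs. The E-box CANNTG, the core bound by myogenic factors such as MyoD, occurred in 31 of the 67 members (46.3%) against 65.2% of all promoters. The ETS core CCGGAAG occurred in 16 members (23.9%) against 7.74% of all, the YY1 core CCATNTT in 9 (13.4%) against 13.7%, and TATAAA in 8 (11.9%) against 13.1%. Rpl3l, with 4 E-boxes, was the 1 member with at least that many, which was so for 849 of all promoters (3.09%), while Rpl3 had 0. That cut-off is the count of Rpl3l itself, and Rpl34, Rplp2, Rps3 and Rps4y2 had 3 each. Whether the E-boxes bear on its level was not tested. The upstream bases of Rpl3l are printed because its level runs against that of the family, with the E-boxes in capitals.
Rpl3l (chr10:14258196-14258445, plus strand): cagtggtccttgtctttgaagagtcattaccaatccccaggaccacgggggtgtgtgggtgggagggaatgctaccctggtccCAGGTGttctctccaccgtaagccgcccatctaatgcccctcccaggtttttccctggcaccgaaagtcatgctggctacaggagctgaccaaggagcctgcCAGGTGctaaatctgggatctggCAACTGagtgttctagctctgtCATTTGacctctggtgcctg

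The libraries held 17.2 to 39.9 M fragments (M, mega), and all 60-day libraries (17.2 to 22.4 M) lay below the others. The 10 most abundant genes took 24.6% of the fragments in the controls and 13.3%, 18.4% and 18.9% at the 3 later times, and the TMM factors that correct for such shifts ran from 0.75 to 0.77 at 0 days and from 1.18 to 1.24 at 10 days. Levels below are CPM, fragments of a gene in 1 M fragments after TMM scaling, and are not divided by transcript length, so they compare libraries and not genes. In the edgeR quasi-likelihood test 11658 genes were tested, and a gene was called at a Benjamini-Hochberg adjusted p under 0.05 over all of them.

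The ribosomal protein genes took a larger part of the messenger RNA at every time after injury. Their summed share of all fragments was 2.39%, 2.15%, 2.42% and 2.42% in the 4 libraries at 0 days. It was 4.29%, 4.68%, 4.83% and 5.03% at 10 days. At 30 days it was 4.74%, 3.48%, 4.09% and 4.13%, and at 60 days 3.13%, 3.54%, 3.52% and 3.81%. Every injured library lay above every control library, and the 10-day and 60-day libraries did not overlap. The 95% Wilson interval of the last of these shares was 3.81% to 3.82%, and such intervals cover counting error only. The group means were 2.34% ± 0.130 (SD, n = 4), 4.71% ± 0.310, 4.11% ± 0.512 and 3.50% ± 0.283 in order of time.

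This share also moves with the part taken by the most abundant transcripts, so the TMM-scaled level is given beside it. The mean log2 CPM of the 70 tested core members other than Rpl3 was 8.49 ± 0.0970 (SD, n = 4) in the controls and, in order of time after injury, 8.87 ± 0.0965, 8.86 ± 0.151 and 8.72 ± 0.0700. All 12 injured libraries again lay above the controls, whose highest was 8.57, while the lowest injured library, replicate 1 at 60 days, was at 8.61. The plot of the family by library shows both measures.

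**Figure D1:**
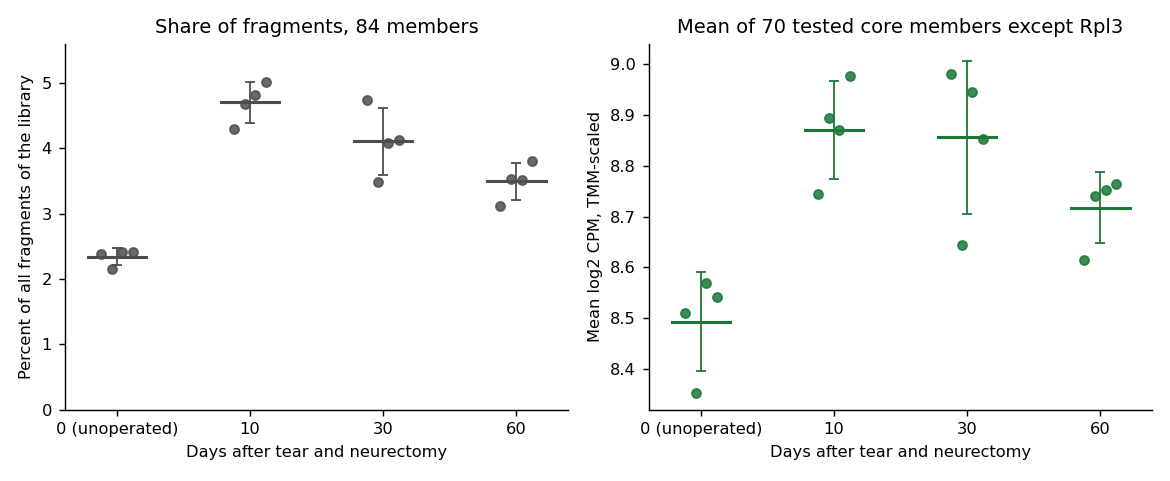
Left, percent of each library's fragments that fell on the 84 ribosomal protein genes; right, mean log2 CPM (TMM-scaled) of the 70 tested core members other than Rpl3, both against days after tear and neurectomy. Points are libraries and bars the mean ± SD of 4; every injured library lies above the controls, and the rise is far larger as a share of fragments (2.34% to 4.71% at 10 days) than on the scaled level (8.49 to 8.87).

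At 10 days 54 of the 77 tested members had risen and 3 had fallen, where 33.3% of all genes tested were called higher and 29.4% lower. The median log2 fold change of the members was 0.34, against 0.061 over all genes. At 30 days 57 were higher and 1 lower (background 33.7% and 30.9%), with a median of 0.33 against 0.046. At 60 days 41 were higher and 1 lower (background 29.9% and 29.1%), with a median of 0.25 against 0.040. In 53, 46 and 38 members at the 3 times, every injured library lay above every control library, which held for 31.2%, 31.1% and 24.0% of all genes. With library totals in place of TMM factors, 74 members rose and 1 fell at 10 days, where 70% of all genes were called higher and 10.1% lower on that scale. The counts there were 75 and 1 at 30 days (63.1% and 11.9% of all genes) and 73 and 0 at 60 days (57.8% and 12.1%). The members' medians on that scale were 1.00, 0.83 and 0.66 beside 0.72, 0.54 and 0.45 over all genes, so the members' median exceeded that of all genes on either scale.

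Most of these rises were small. Only Rpl3 and Rpl3l moved by more than 2-fold at 10 days, and the middle 50% of the members had log2 fold changes between 0.17 and 0.59. Both subunits took part: of 43 tested core members of the large subunit 30, 31 and 23 rose at 10, 30 and 60 days, with medians of 0.34, 0.32 and 0.25. Of 28 tested core members of the small subunit 23, 24 and 16 rose, with medians of 0.40, 0.39 and 0.26. No core member fell at 10 or 30 days, and Rplp0 was the 1 core member called lower at 60 days.

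Over time, 35 members were higher at all 3 times, 12 at 10 and 30 days, 6 at 10 days alone, 5 at 30 and 60 days and 4 at 30 days alone. In the same order these patterns were seen in 16.6%, 6.72%, 5.28%, 7.01% and 2.49% of all genes tested, beside 45.5%, 15.6%, 7.79%, 6.49% and 5.19% of the members. The other calls were mixed and belonged to Rpl3l, Rpl22l1, Rps4y2 and Rplp0. The 11 members called at no time were Rpl7, Rpl13a, Rpl14, Rpl15, Rpl24, Rpl36, Rpl36al, Rpl37a, Rplp1, Rps14 and Rps19bp1, or 14.3% of the members, beside 14.0% of all genes. The level of Rps14, a small-subunit protein, lay between 420.1 and 525 CPM in all 16 libraries.

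**Figure D2:**
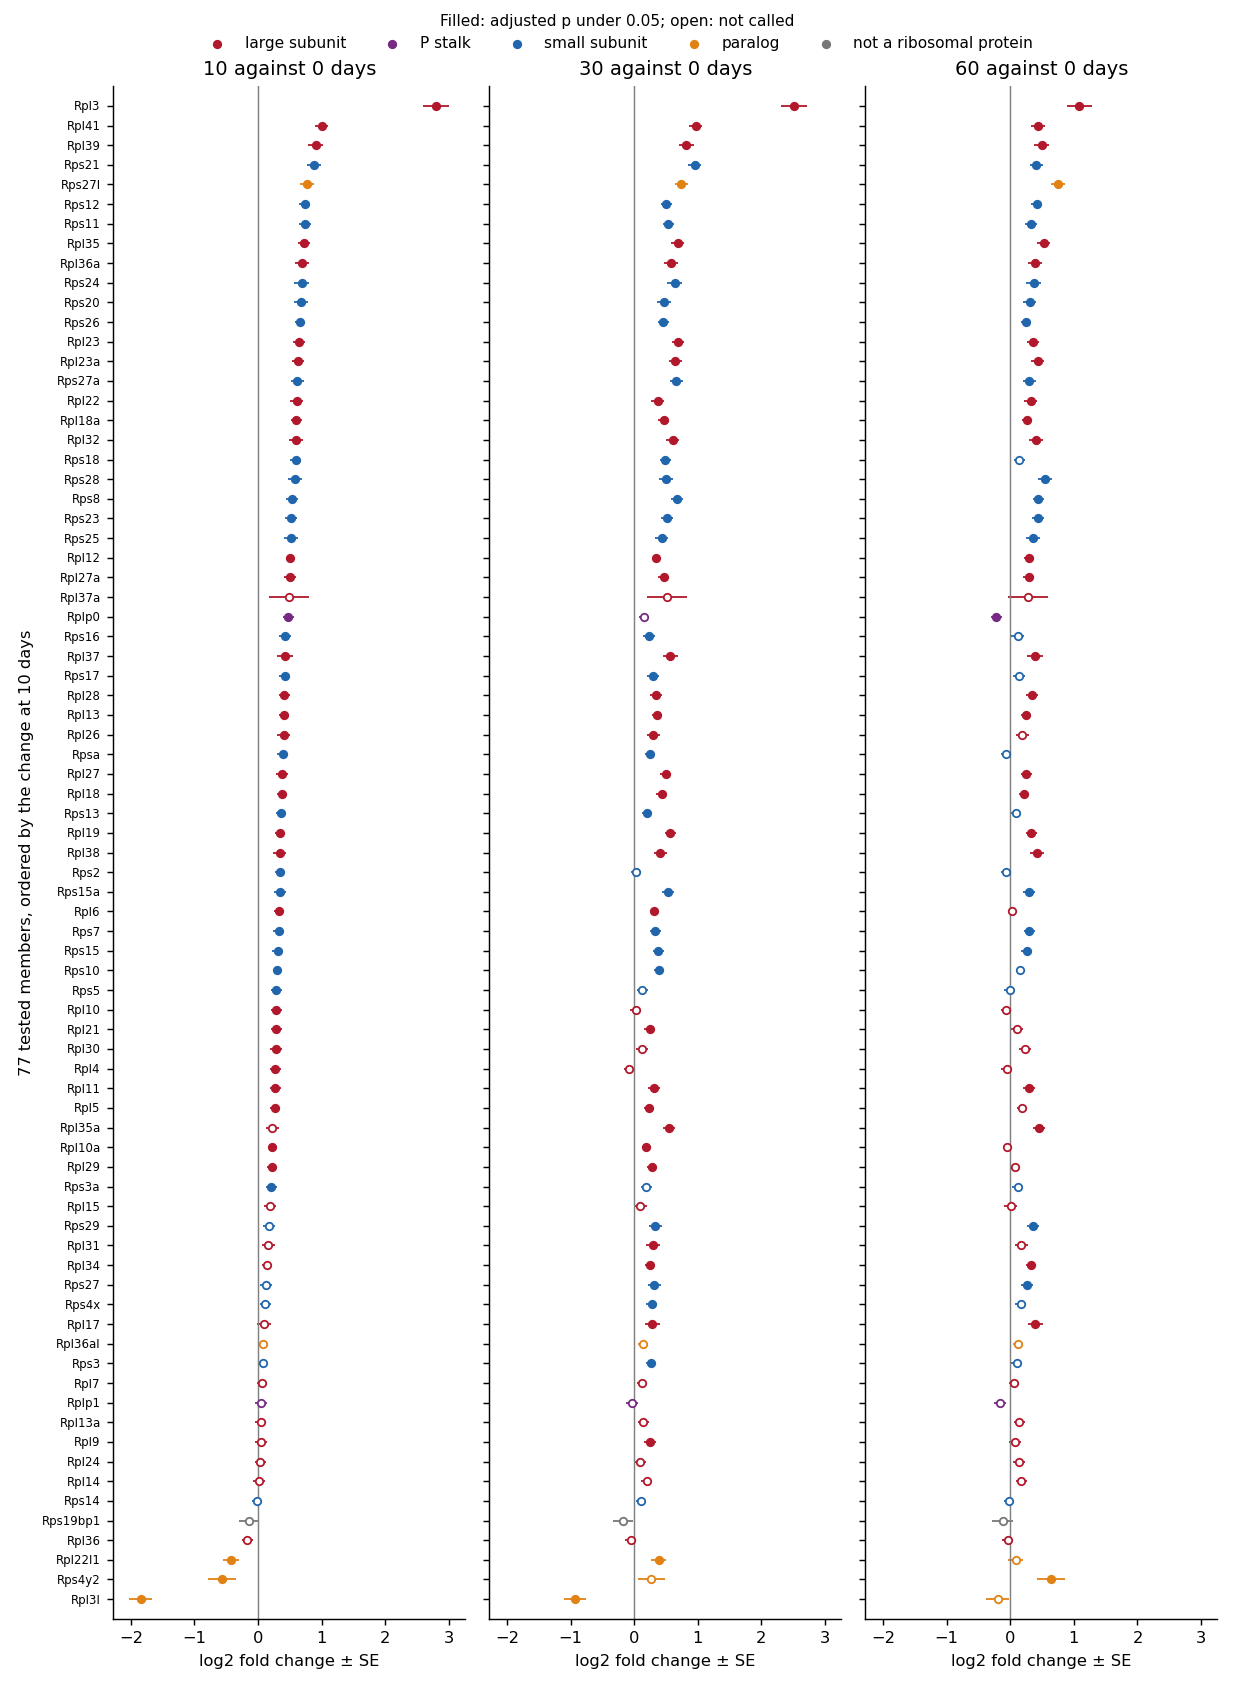
Log2 fold change ± SE of the 77 tested members at 10, 30 and 60 against 0 days (edgeR, 4 libraries a group), ordered by the change at 10 days and coloured by subunit; filled points passed an adjusted p of 0.05. Most members lie between 0 and 1, with Rpl3 at 2.80 and Rpl3l at -1.84 at 10 days standing at the ends.

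Among the core members Rpl3, a protein of the catalytic region of the large subunit, changed most. Its levels at 0 days were 76.7, 86.9, 90.3 and 95.4 CPM. They were 610.2, 589, 541 and 688 CPM at 10 days, 671, 313, 374 and 627 CPM at 30 days, and 164, 171, 181 and 226 CPM in the 60-day libraries. No injured library overlapped the controls, and the 60-day libraries lay below all of those at 10 and 30 days. The log2 fold change was 2.80 ± 0.208 (SE, adjusted p = 1.25e-08) at 10 days, 2.51 ± 0.205 (adjusted p = 5.11e-08) at 30 days and 1.09 ± 0.197 (adjusted p = 0.000227) at 60 days, so that Rpl3 was 6.95-fold, 5.68-fold and 2.13-fold higher. From 10 to 60 days Rpl3 fell by 1.71 on the log2 scale (adjusted p = 2.51e-06).

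Its muscle paralog Rpl3l went the other way. Levels at 0 days were 913, 889, 946 and 918 CPM. At 10 days they were 277, 271, 281 and 193 CPM, at 30 days 321, 595, 631 and 378 CPM, and at 60 days 846, 723, 833 and 792 CPM. Rpl3l fell 3.59-fold at 10 days (log2 fold change -1.84 ± 0.181, adjusted p = 2.34e-07) and 1.90-fold at 30 days (-0.93 ± 0.177, adjusted p = 0.000258). At 60 days the log2 fold change was -0.20 ± 0.176 (adjusted p = 0.343), which did not pass, although each 60-day library lay below each control library. With library totals that value was 0.21 and did not pass either. Rpl3l rose from 10 to 60 days by 1.65 (adjusted p = 1.19e-06).

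The ratio of Rpl3l to Rpl3 fragments within a library does not depend on how libraries are scaled. It was 11.9, 10.2, 10.5 and 9.63 at 0 days. At 10 days it was 0.454, 0.459, 0.519 and 0.280, at 30 days 0.479, 1.90, 1.69 and 0.603, and at 60 days 5.17, 4.24, 4.59 and 3.50. Rpl3l made up 90.6% to 92.3% of the fragments of the pair at 0 days, 21.9% to 34.2% at 10 days, 32.4% to 65.5% at 30 days and, in the 60-day libraries, 77.8% to 83.8%. The mean log2 ratio was 3.40 ± 0.128 (SD, n = 4), -1.26 ± 0.394, -0.028 ± 1.01 and 2.12 ± 0.236 in order of time.

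The log2 ratio was lower than at 0 days by 4.66 at 10 days, 3.42 at 30 days and 1.28 at 60 days, and it was higher at 60 than at 30 days by 2.14 and at 60 than at 10 days by 3.38. For each of these 5 differences the groups did not overlap, and the two-sided exact permutation p was 0.0286, the smallest that 4 against 4 can give (adjusted p = 0.0343 over 6 pairs). The difference of 1.23 between 30 and 10 days had an exact p of 0.0571, which missed the threshold. The 30-day libraries spread most: replicates 1 and 4 lay at 0.479 and 0.603 and replicates 2 and 3 at 1.90 and 1.69.

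**Figure D3:**
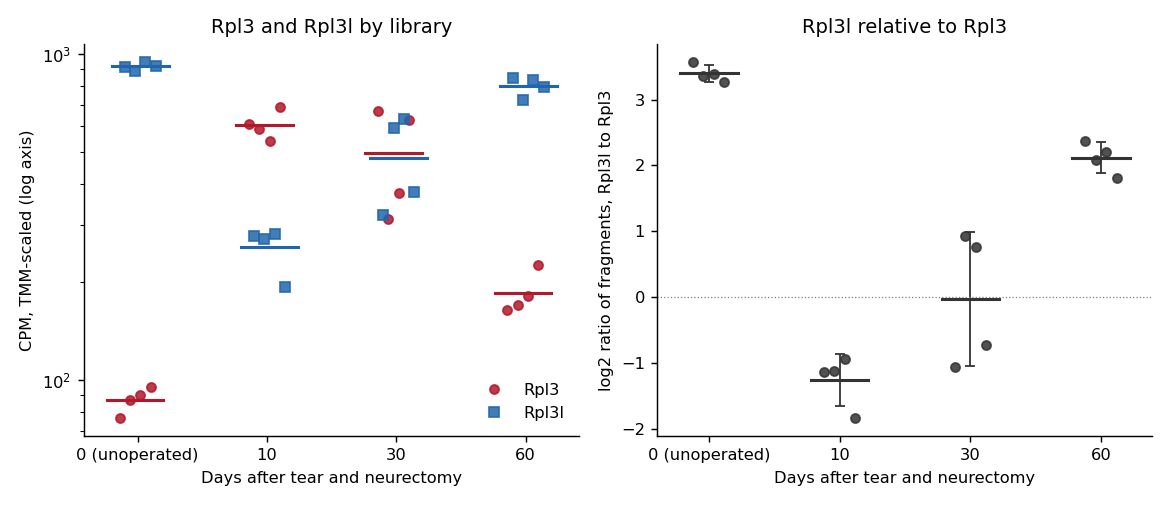
Left, CPM (TMM-scaled, log axis) of Rpl3 (circles) and Rpl3l (squares) in each library against days after injury, with bars at the mean; right, log2 ratio of Rpl3l to Rpl3 fragments with mean ± SD of 4. The ratio drops from 3.40 at 0 days to -1.26 at 10 days and stands at 2.12 at 60 days, with the 30-day libraries spread between -1.06 and 0.93.

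After Rpl3 the largest rises at 10 days belonged to Rpl41, Rpl39, Rps21 and Rps27l. Rpl41, a very short basic protein at the interface of the subunits, was at 486, 436, 503 and 509 CPM at 0 days and at 847, 978, 953 and 1083 CPM at 10 days. It was at 1112, 774, 957 and 933 CPM at 30 days and at 584, 677, 683 and 675 CPM at 60 days. Its 60-day libraries formed a middle level, above all controls and below all libraries of 10 and 30 days. The log2 fold changes were 1.00 ± 0.107 (adjusted p = 5.42e-07), 0.96 ± 0.107 (adjusted p = 1.02e-06) and 0.44 ± 0.106 (adjusted p = 0.00223).

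Rpl39, which lines the tunnel through which the new protein leaves, rose by 0.91 ± 0.118, 0.82 ± 0.118 and 0.50 ± 0.118 (adjusted p from 4.65e-06 to 0.00183). Rps21, of the small subunit, rose by 0.88 ± 0.105, 0.95 ± 0.105 and 0.41 ± 0.105 (adjusted p from 9.71e-07 to 0.00316). Controls of Rps21 ran from 156 to 194 CPM and the 60-day libraries from 221 to 247 CPM, with the 10-day and 30-day libraries between 287 and 412 CPM. Rps28 and Rpl35 were among the largest rises at 60 days, at 0.55 ± 0.111 (adjusted p = 0.000487) and 0.53 ± 0.101 (adjusted p = 0.000309). Their changes at 10 days were 0.59 and 0.72, and neither passed the test of 60 against 10 days.

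The P stalk, the arm of the large subunit that recruits elongation factors, had members with different calls. Rplp0, its base, was at 1257, 1192, 1313 and 1337 CPM at 0 days and at 1762, 1847, 1699 and 1772 CPM at 10 days. It was at 1459, 1230, 1558 and 1433 CPM at 30 days and at 1195, 1085, 1058 and 1040 CPM at 60 days. Rplp0 rose by 0.47 ± 0.0849 at 10 days (adjusted p = 0.000129), with no overlap of the groups, and fell by 0.69 ± 0.0852 from 10 to 60 days (adjusted p = 3.35e-06). The value at 60 against 0 days was -0.22 ± 0.0848 (adjusted p = 0.0348), a call lost when replicate 1, 3 or 4 of 0 days or replicate 2, 3 or 4 of 60 days was left out (-0.22 to -0.17), with only the 2 groups fitted (-0.20), after thinning (-0.20) and with a mean of at least 1 CPM (-0.18). With upper-quartile factors it was -0.08 (adjusted p = 0.411) and with library totals 0.19, so the direction at 60 days depended on the scaling. Rpl12, which sits beside it, rose at all 3 times (0.51 ± 0.0757, 0.35 ± 0.0756 and 0.29 ± 0.0756, adjusted p from 2.01e-05 to 0.00325). Rplp1, one of the acidic tips, had log2 fold changes of 0.04, -0.03 and -0.16, none of which passed. Rplp2 is listed at 0 in every library.

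The paralogs other than Rpl3l had different calls from each other. Rpl22l1, a paralog of the RNA-binding protein Rpl22, was at 66.2, 61.9, 75.3 and 68.9 CPM at 0 days and at 42.0, 52.0, 50.9 and 57.6 CPM at 10 days. It was at 101.8, 78.3, 84 and 91.3 CPM at 30 days and at 56.5, 72.3, 75.8 and 84.7 CPM at 60 days. Rpl22l1 lay below the controls in all 10-day libraries (-0.43 ± 0.119, adjusted p = 0.00508) and above them in all 30-day libraries (0.38 ± 0.119, adjusted p = 0.00977), while the 60-day libraries overlapped them (0.09 ± 0.119). Rpl22 itself rose at each time (0.60 ± 0.101, 0.37 ± 0.100 and 0.32 ± 0.100, adjusted p from 6.21e-05 to 0.0111). With library totals the 10-day value of Rpl22l1 was 0.23, below the 0.72 of all genes on that scale.

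Rps27l, a paralog of Rps27 whose gene is a known target of p53, was at 73.9, 56.8, 78.8 and 71.8 CPM at 0 days, 115, 124, 111 and 127 CPM at 10 days, 122, 106, 120.4 and 123 CPM at 30 days, and 142, 106, 103 and 121 CPM at 60 days. Every injured library was above the controls, and the log2 fold changes of 0.76, 0.74 and 0.75 (SE 0.108 each, adjusted p from 1.16e-05 to 2.41e-05) were close to each other at the 3 times. Rps27 was at 0.12 at 10 days, which did not pass, and rose by 0.32 at 30 days (adjusted p = 0.0104) and by 0.26 at 60 days (adjusted p = 0.0321).

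Rpl36al did not pass at any time (0.08, 0.14 and 0.12), beside rises of 0.69, 0.57 and 0.38 in Rpl36a (adjusted p from 4.26e-05 to 0.00677). Rps4y2 was scarce, at 1.49 to 2.59 CPM at 0 days, 1.02 to 1.71 at 10 days, 1.81 to 3.12 at 30 days and 3.08 to 3.45 at 60 days. Its rise at 60 days (0.64 ± 0.216, adjusted p = 0.0175) was lost without replicate 4 of 0 days (0.54). Its fall at 10 days (-0.57 ± 0.221, adjusted p = 0.0346) was lost without replicate 1 or 3 of 0 days or replicate 1 or 3 of 10 days (-0.54 to -0.43), and with library totals the value was 0.089. Rps4x, the main copy of that protein, passed at 30 days alone (0.28 ± 0.0865, adjusted p = 0.0105). Paralogs and the many processed pseudogenes of this family share stretches of sequence, and how fragments that match several copies were shared out is not given in the sources used here, so the split between copies is uncertain.

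**Figure D4:**
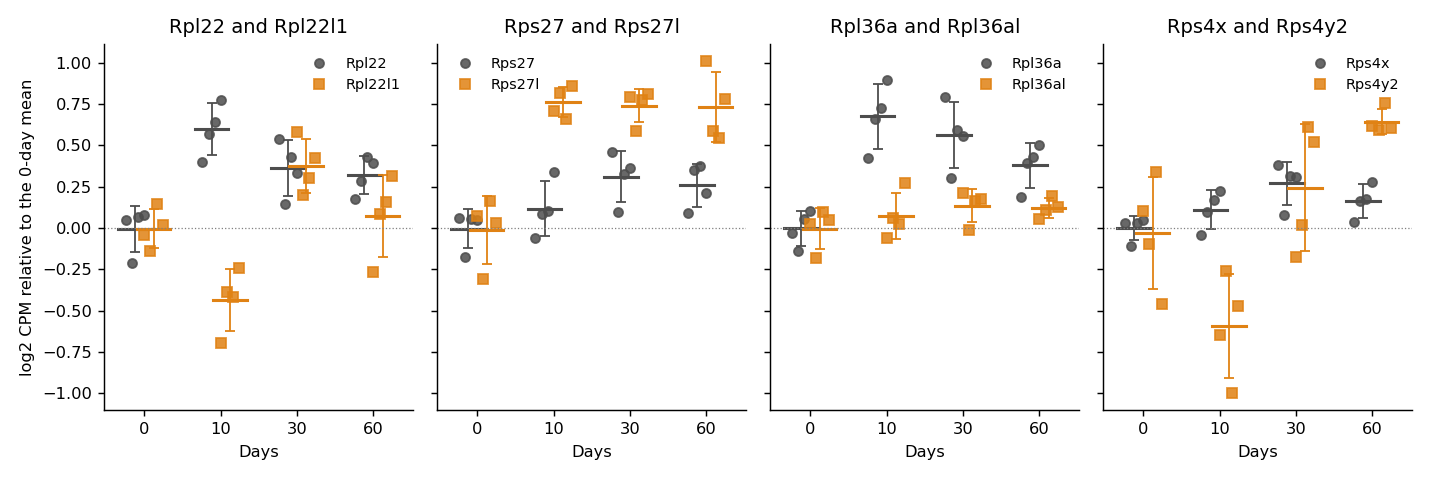
Log2 CPM of 4 paralogs (squares) and their partners (circles) in each library, relative to the mean of the 0-day libraries, against days after injury; bars are the mean ± SD of 4. Rpl22l1 lies below 0 at 10 days while Rpl22 lies above it, Rps27l stays near 0.75 at all 3 times, and Rps4y2 rests on 1.02 to 3.45 CPM.

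A few members have roles beyond the ribosome. Rps27a is made as a fusion of ubiquitin with a small-subunit protein, and rose by 0.61 ± 0.103, 0.66 ± 0.103 and 0.30 ± 0.102 (adjusted p from 3.42e-05 to 0.0179). Fau, which encodes a small-subunit protein fused to a ubiquitin-like one and has a symbol outside the member rule, also rose at each time (0.27 ± 0.0838, 0.55 ± 0.0840 and 0.47 ± 0.0839, adjusted p from 2.93e-05 to 0.00948). Rpsa, a small-subunit protein also known as a laminin receptor, rose at 10 days (0.38 ± 0.0804, adjusted p = 0.000525) and was at -0.06 ± 0.0803 at 60 days.

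Between 10 and 30 days few members changed: 5 rose and 5 fell (background 23.0% and 24.3%), with a median of -0.01. From 30 to 60 days 1 rose (Rpl3l) and 11 fell (background 10.3% and 12.4%), with a median of -0.12. These 12 calls stand beside 22.6% of all genes called in either direction with all 16 libraries. Without replicate 2 of 30 days, the lowest of its group, 24 members were called, and the share of all genes in that fit is not given here. From 10 to 60 days 27 fell and 5 rose (background 31.9% and 29.1%), with a median of -0.15. All 27 had been higher at 10 than at 0 days, and 15 of them were still higher at 60 than at 0 days. Both comparisons use the same 10-day libraries, and the share of all genes with these patterns is not given here, so no trait of the family is read from them. The 5 that rose were Rpl3l (1.65), Rps4y2 (1.21), Rpl22l1 (0.51), Rpl17 (0.30) and Rpl34 (0.20), and the largest falls were in Rpl3 (-1.71), Rplp0 (-0.69), Rpl41 (-0.56), Rps21 (-0.47) and Rpsa (-0.45). The rise of Rpl17 was lost without replicate 1 or 3 of 10 days or 3 or 4 of 60 days (0.25 to 0.29), and that of Rpl34 without replicate 1, 2 or 3 of 10 days or 2, 3 or 4 of 60 days (0.16 to 0.20). With library totals 3 rose and 20 fell from 10 to 30 days (13.1% and 34.5% of all genes on that scale), 1 rose and 21 fell from 30 to 60 days (6.42% and 18.0%), and 2 rose and 55 fell from 10 to 60 days (17.7% and 45.5%). Without replicate 2 of 30 days 11 members rose from 10 to 30 days, and without replicate 4 of 10 days 9 did, with no share of all genes given for these fits.

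The other genes that build and drive ribosomes were followed as lists, whose counts stand beside 33.3%, 33.7% and 29.9% of all genes called higher and 29.4%, 30.9% and 29.1% called lower at 10, 30 and 60 days. All genes had medians of 0.72, 0.54 and 0.45 with library totals, and each list's medians on that scale are given for comparison with these. Of 43 tested ribosome biogenesis factors, which process ribosomal RNA and assemble the subunits in the nucleolus, 28 rose and 2 fell at 10 days, 10 rose and 6 fell at 30 days, and 6 rose and 13 fell at 60 days. Their median log2 fold change was 0.34 at 10 days, as in the ribosomal proteins, and then 0.00 and -0.10, or 1.00, 0.50 and 0.31 with library totals. Utp18, of the small-subunit processome, was at 1.15 ± 0.117 at 10 days (adjusted p = 2.84e-07) and at 0.07 and -0.13 later, neither of which passed. Bop1 rose by 0.95 ± 0.146 at 10 days, was at -0.11 at 30 days and fell by 0.56 ± 0.149 at 60 days (adjusted p = 0.00418), a call lost with library totals (-0.16). Ddx21 rose by 0.95 ± 0.103 at 10 days and was at 0.13 at 30 days and at -0.26 ± 0.103 at 60 days (adjusted p = 0.0373), a value that was 0.14 with library totals.

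RNA polymerase I, which transcribes ribosomal RNA, and its factors had 13 tested genes, of which 8 rose and 0 fell at 10 days, 4 rose and 3 fell at 30 days, and 3 rose and 3 fell at 60 days. The medians were 0.31, 0.12 and 0.05, or 0.97, 0.62 and 0.46 with library totals. Its largest subunit Polr1a rose by 1.53 ± 0.107 at 10 days (adjusted p = 4.71e-09) and was at 0.18 at 30 and -0.09 at 60 days. Polr1e and Taf1d were among the rises at 10 and 30 days, and Polr1b and Rrn3 among the falls at 30 and 60 days. With library totals the calls of Polr1b and Rrn3 at 30 days (-0.16 and 0.12) and that of Rrn3 at 60 days (-0.17) were lost. Myc, a transcription factor that drives many of these genes, rose by 3.13 ± 0.198, 2.64 ± 0.197 and 1.54 ± 0.199 (adjusted p from 2.39e-09 to 8.55e-06). In the list of growth signalling to the ribosome, of 17 tested genes, 9 rose and 3 fell at 10 days, 3 rose and 10 fell at 30 days, and 3 rose and 9 fell at 60 days. The medians were 0.21, -0.31 and -0.39, or 0.87, 0.19 and 0.0089 with library totals. This list mixes drivers, such as Mtor and Myc, with restraints, such as Tsc1 and Eif4ebp2. Its counts and medians therefore give no direction of signalling. Eif4ebp2, an inhibitor of cap-dependent translation, fell at each time (-0.72 ± 0.169, -2.48 ± 0.180 and -2.19 ± 0.180), although the 10-day value with library totals was -0.06 and was not called.

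The elongation list of 9 genes had 4 higher and 4 lower at 10 days, 3 and 4 at 30 days, and 1 and 3 at 60 days. Its medians were 0.21, 0.02 and -0.10, or 0.86, 0.51 and 0.31 with library totals. The list also holds Eef2k, a kinase that inhibits Eef2, and Tpt1 and Eef1e1, which are not elongation factors themselves. Eef2k and Tpt1 were among the falls at 10 and 30 days, and Eef2k among those at 60 days, so the counts do not describe elongation factors alone. Eef1a1, the general form of the factor that brings aminoacyl-tRNA to the ribosome, rose by 2.97 ± 0.148, 2.84 ± 0.147 and 1.60 ± 0.141 (adjusted p from 1.99e-10 to 1.39e-07). Eef1a2, its muscle and nerve form, chosen here after its values were seen, fell by 0.51 ± 0.163, 0.52 ± 0.163 and 0.75 ± 0.163. With library totals the values of Eef1a2 were 0.14, -0.03 and -0.35, so that its direction at 10 days depended on the scaling. Of 36 tested initiation factors 14 rose and 9 fell at 10 days, 8 rose and 17 fell at 30 days, and 5 rose and 19 fell at 60 days. Their medians were 0.09, -0.15 and -0.20, or 0.75, 0.35 and 0.21 with library totals. Eif4a1 (1.48 ± 0.0896) and Pabpc1 (1.20 ± 0.0836) led the rises at 10 days, while Eif1 fell (-1.30 to -1.19 with 1 library left out at a time). At 30 days Eif4g3 (-1.28 to -1.21 in such fits) and Eif5 (-0.92 to -0.88) were among the largest called falls. Of the 2 tested host genes of small nucleolar RNAs, 1 rose at 10 days, 2 at 30 days and 1 at 60 days, and Gas5 rose by 0.32, 0.87 and 0.44, the first of these calls being lost without replicate 2 of 0 days (0.27) or replicate 4 of 10 days (0.25).

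**Figure D5:**
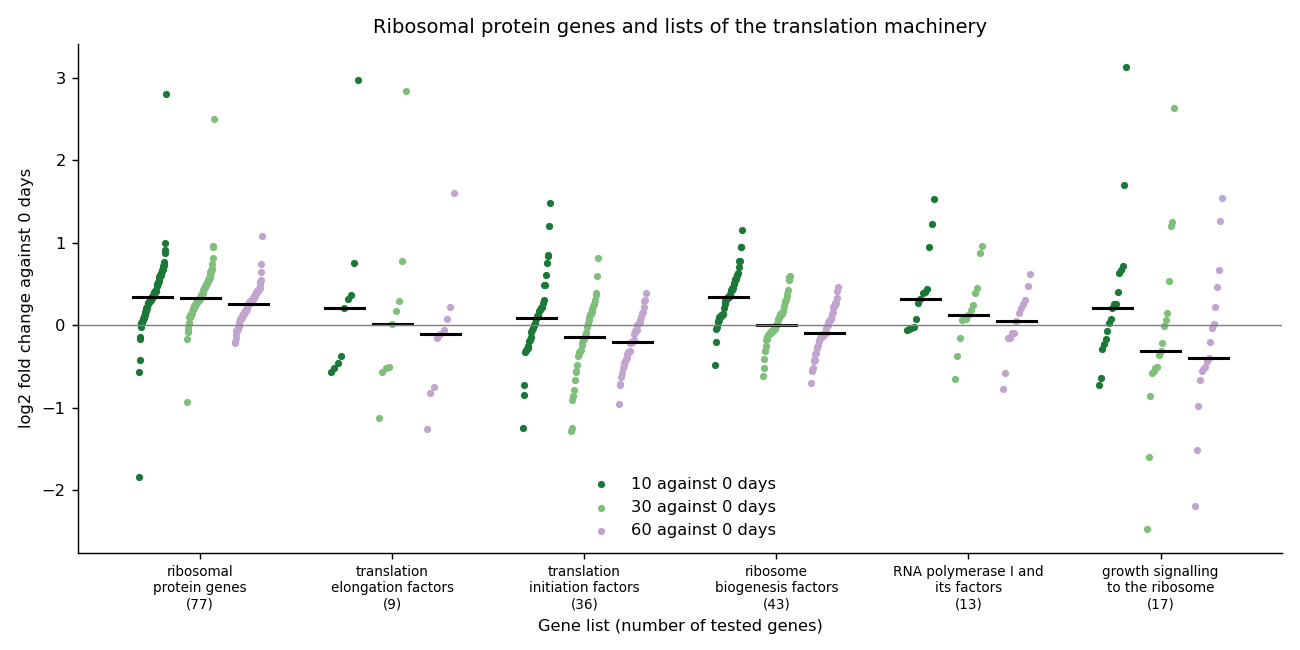
Log2 fold change of each tested gene at 10, 30 and 60 against 0 days for the ribosomal protein genes and 5 lists of the translation machinery; points are genes and black bars list medians. The ribosomal proteins keep a median above 0 at all 3 times (0.34, 0.33 and 0.25), while the biogenesis factors go from 0.34 to 0.00 and -0.10 on this TMM scale (1.00, 0.50 and 0.31 with library totals).

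Levels of cell type markers changed over the same times, and in bulk tissue fewer cells of a type and less RNA per cell cannot be told apart. Of 14 tested muscle fibre markers 13 fell and 1 rose at 10 days, 9 fell and 1 rose at 30 days, and 6 fell and 3 rose at 60 days. Their summed level was 270600 to 297400 CPM at 0 days, 82700 to 91200 at 10 days, 143300 to 202500 at 30 days and 179300 to 204300 in the 60-day libraries. Of 15 macrophage markers 13, 15 and 15 rose, from a summed 57.6 to 90.9 CPM at 0 days to 170.0 to 231, 249 to 302 and 205 to 369 CPM. Of 11 tested fibroblast markers 7, 11 and 11 rose (573 to 1171 CPM at 0 days, and 1102 to 3300, 1749 to 2850 and 1578 to 3405 later), with Col1a2 listed at 0 throughout.

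Of 6 satellite cell and myoblast markers 3, 3 and 2 rose and 1 fell at each time. Their summed level was 113 to 130 CPM at 0 days, 659 to 758 at 10 days, 518 to 805 at 30 days and 156 to 278 in the 60-day libraries. Of 5 tested lymphocyte markers 5, 5 and 4 rose, and of 10 cycling-cell markers 2, 6 and 3. Of 10 endothelial markers 9, 4 and 2 fell and 0, 0 and 1 rose, of 9 adipocyte markers 2, 2 and 0 fell and 0, 0 and 6 rose, and of 8 Schwann cell markers 3, 1 and 0 fell and 1, 3 and 7 rose. The marker counts stand beside the same shares of all genes as the lists above. With library totals the median at 10 days went from -0.58 to 0.08 in the endothelial, from -0.67 to -0.01 in the adipocyte and from -0.12 to 0.54 in the Schwann cell markers. On that scale the muscle fibre median was -1.06, -0.15 and 0.09 at the 3 times, against -1.71, -0.64 and -0.31. The part of these shifts in the levels of the ribosomal protein genes was not tested.

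Of the 7 members not tested, Rpl7a, Rpl8, Rplp2, Rps6 and Rps9 are listed at 0 in all 16 libraries. All 5 are core proteins that every cell uses, so a value of 0 can be a failed estimate and is no measure of their level. Rps19, another core protein, had 0 to 5 fragments a library, where Rps18 had 6555 to 19586, so the same caution applies to it. The paralog Rpl39l had 0 to 15. Rps19bp1 was tested, lay between 4.44 and 6.92 CPM and passed at no time.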

How the data were processed

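The table deposited by the authors holds expected counts per gene, written by Cuffdiff 2.1.1 after alignment with TopHat2 2.0.9 and Bowtie2 2.1.0.0 to the build rn5, per the submitters' processing notes. Per the labels' protocols, extraction used QIAGEN miRNeasy and library preparation Illumina TruSeq mRNA v2 reagents. The annotation, the strand setting, any filter and the handling of fragments that match several genes are not given in the sources used here. The values are raw fragments, not scaled for depth or length. Of the members 1 (Rpl37a) had fractional values. All 16 columns were matched to samples by their labels.

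Values were rounded to whole counts. All 16 libraries entered 1 edgeR 4.0.16 quasi-likelihood model (R 4.3.3) with TMM factors, robust estimation and no covariate, after filterByExpr by group had kept 11658 genes. P-values of each pair of groups were adjusted by the Benjamini-Hochberg method over all genes, and a gene was called at an adjusted p under 0.05. SE is the size of the log2 fold change divided by the square root of F. Ratios of Rpl3l to Rpl3 (0.5 added to each) were tested with an exact permutation test, two-sided (scipy 1.17.1). Replicates of a group differed beyond sampling noise (chi-square per gene from 13.3 to 102.5 over 24 pairs), so each was counted. Depth was 17.2 to 39.9 M fragments (M, mega), so that 3 counts, the smallest level shown, came to 0.0752 to 0.175 CPM; this covers counting error only.

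On simulated data 170 of 200 genes changed 2-fold were called at 10 against 0 days, with 5 false calls among 11527 genes tested, and a comparison without change gave 0 calls.

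Members, gene lists, markers and tests were chosen with earlier results of these data known. Genes picked by rule were Rpl3 and Rpl3l, paralogs, the P stalk with Rpl12, Rps27a, members not tested, the 5 largest called rises and falls of these comparisons (each time against 0 days, 60 against 10 days), and the 3 largest called changes of each pathway list at each time. Only some of these pathway genes are given with values in the text, rises and falls not evenly. Others named are given as counts of patterns or said to be chosen later. A single list gene is not reported here. Alternatives were RLE and upper-quartile factors, library totals, TMM factors without the members, DESeq2 1.42.0, limma-voom 3.58.1, no filter, a mean of at least 1 CPM, no robust estimation, the 2 groups alone, an adjusted p under 0.01, the column suffix as a replicate block, the title letter (L or R, meaning not stated) as a covariate, thinning to the smallest total and leaving out each library. Promoters came from RefSeq (GRCr8), whose coordinates are those printed.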

Additional observations from a re-analysis of the deposited data

Results flagged for a closer look

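Single libraries stood apart from the other 3 of their group by Dixon's criterion in 12 of 88 groups tested, where chance gives about 1 in 20. Replicate 1 of 60 days was low for Rpl41 (584.3 CPM against 675 to 682.7), Rps28 (140.1 against 183.6 to 185.2) and Rpl35 (416.4 against 478.9 to 490.0). Replicate 1 of 10 days was low for Rpl35 (484.9 against 543.5 to 555.2) and Rpsa (1079 against 1171 to 1174). Replicate 2 of 30 days was low for Rps27l (105.8 against 120.4 to 123.2) and Rpl34 (193.5 against 224.8 to 226.5), and replicate 2 of 0 days for Rps4x (676.7 against 744.5 to 754.8) and for the share of fragments in the whole family (2.149% against 2.386% to 2.418%). In Rpl3l replicate 4 of 10 days was low, at 192.7 CPM against 270.7 to 280.8. Rps19bp1 was high in replicate 3 of 30 days (6.92 against 4.623 to 5.009) and Rps4y2 in replicate 3 of 60 days (3.448 against 3.084 to 3.135).

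The change against 0 days differed between 60 and 10 days, tested as 60 against 10 days with edgeR, for 32 members, 5 with a higher and 27 with a lower value at 60 days. For Rpl3 the difference was -1.711 (adjusted p = 2.51e-06) and for Rpl3l 1.645 (adjusted p = 1.19e-06).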

How the results depend on the processing

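Counts of members called against 0 days stayed within 1.5 times of those reported under the alternatives run, except at 60 days, where 26 were called at an adjusted p under 0.01 (26 higher) and 73 with library totals (73 higher). At 30 against 10 days 6 were called at that stricter p (3 higher) and 23 with library totals (3 higher), and 11 were higher with upper-quartile factors. At 60 against 30 days 5 were called at the stricter p, 22 with library totals and 4 when only the 2 groups were fitted. At 60 against 10 days 57 were called with library totals (2 higher), 9 were higher with upper-quartile factors and 3 at the stricter p. Apart from library totals, the share of all genes called under each alternative, including those without 1 library, is not given here. No trait of the family is read from these counts. Leaving out 1 library at a time gave 53 to 58, 51 to 62 and 37 to 48 members called against 0 days, 8 to 14 (4 to 11 higher) at 30 against 10 days, 9 to 24 (24 without replicate 2 of 30 days) at 60 against 30 days and 26 to 36 (3 to 7 higher; 3 without replicate 1 or 3 of 10 days or replicate 3 or 4 of 60 days) at 60 against 10 days.

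Of 204 single-gene values, library totals turned the sign of 31, of which 8 passed the threshold on neither scale. Eef1a2 is not among the 204. The 23 others then were, at 10 days, Rpl22l1 0.23, Rps19bp1 0.51, Rps4y2 0.089, Tpt1 0.096, Eef2k 0.29, Eif4g3 0.33, Eif5 0.35, Mrto4 0.62, Polr1b 0.64 and Tsc1 0.37. At 30 days they were Rplp1 0.46, Bop1 0.39, Wdr12 0.18 and Rrn3 0.12, and at 60 days Rplp0 0.19, Rplp1 0.25, Rpsa 0.34, Tpt1 0.31, Eif1 0.21, Ddx21 0.14 and Polr1a 0.31. At 60 against 10 days Rpl34 was -0.049 and Fau -0.046. Library totals raised the median of all genes by 0.66, 0.49 and 0.41. No other alternative turned a value called under it or in the results above. Over all alternatives, library totals included, there were 6120 single-gene values, of which 5909 kept their call or their lack of one. A change of sign between values that both missed the threshold is counted there. With the sign kept, 119 lost a call and 69 gained one, and 23 were the turned values listed above. The cause was not tested.

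The replicate numbers did not pair the libraries: the mean correlation of same-numbered libraries was 0.0013, from -0.24 to 0.22 over 24 pairs. With the replicate block 55 rose and 2 fell at 10 days, 57 and 1 at 30 days and 43 and 1 at 60 days. The share of all genes called in that fit is not given here. In it the fall of Rps4y2 at 10 days (-0.55, adjusted p = 0.0555) and that of Ddx21 at 60 days (-0.27, adjusted p = 0.0568) lost their calls. The paired differences of the log2 ratio were -4.656, -3.424, -1.281, 2.143 (60 against 30 days) and 3.375 (60 against 10 days), each at an exact p of 0.125, the smallest that 4 pairs can give. Without 1 library the differences ran from -4.761 to -4.464, -3.742 to -3.079, -1.366 to -1.178, 0.914 to 1.577 (30 against 10 days), 1.798 to 2.461 and 3.183 to 3.480, and 3 against 4 cannot pass the threshold (adjusted p from 0.0571 to 0.114).

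Depth limits Rps4y2 and Rpl39l, while Rps19 and the members at 0 have no usable level. With 4 libraries a group, small changes can be missed: in the simulation 170 of 200 genes changed 2-fold were called. All 60-day libraries were the smallest, so depth and that time cannot be told apart by totals, although thinning to the smallest total kept the counts within 1.5 times.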

Other observations

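Several ribosomal protein genes are in common use as reference genes in quantitative PCR, and 4 were looked at for that reason after their values had been seen. Rpl13a had log2 fold changes of 0.04 ± 0.0847, 0.14 ± 0.0847 and 0.15 ± 0.0848 (SE) at 10, 30 and 60 against 0 days, none called by edgeR. Rpl32 rose at each time (0.60 ± 0.109, 0.60 ± 0.109 and 0.40 ± 0.109, adjusted p from 0.000146 to 0.00487). Rps18 rose at 10 and 30 days (0.59 ± 0.0907 and 0.49 ± 0.0907, adjusted p = 2.83e-05 and 0.000188) and was at 0.14 ± 0.0906 at 60 days. Rplp0 was at 0.47, 0.16 and -0.22. With library totals in place of TMM factors Rpl13a was at 0.70, 0.64 and 0.56, close to the 0.72, 0.54 and 0.45 of all genes on that scale.

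Rpl37a was the 1 member with fractional values, and its level was highest in replicate 1 of every group. It was at 46.8 CPM in replicate 1 and 20.4 to 27.5 in the others at 0 days, 63.7 against 33.2 to 37.7 at 10 days, 70.2 against 29.9 to 38.4 at 30 days, and 53.9 against 28.5 to 36.2 at 60 days. The SE of its log2 fold changes was 0.314 to 0.316, more than 2 times that of Rpl41. The row of its pseudogene, Rpl37a-ps1, was left out by the member rule and was not analysed here.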
